A study of Nematostella vectensis with 33 samples.

Results

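The genes described here are 185 genes of the sea anemone Nematostella vectensis that were higher in polyps given c-di-AMP or 2'3'-cGAMP, higher in embryos given 2'3'-cGAMP, and little different between embryos with NF-kB shRNAs and embryos with GFP shRNA. They were chosen from 22999 genes listed in at least 1 of 3 tables of normalised counts, of which 20483 stood in all 3. Differences throughout are differences between group means of log2(normalised count + 1), the log2 scale. The selection asked for a c-di-AMP minus untreated difference of at least 0.8, with both c-di-AMP values at least 30 and above both untreated values. It also asked for a 2'3'-cGAMP minus untreated difference of at least 2 in polyps, a 2'3'-cGAMP minus untreated difference of at least 1 in embryos over all shRNAs, and an NF-kB minus GFP shRNA difference between -0.8 and 0.8. Of 21260 genes in the polyp table, 331 met the c-di-AMP conditions, 246 also met the polyp condition for 2'3'-cGAMP, 219 also met the embryo condition and 185 remained after the NF-kB condition. That last condition left out 30 genes below the band and 4 above it.

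Messenger RNA of whole polyps and whole embryos was sequenced in 33 libraries. Polyps were kept for 24 h with 500 µM of c-di-AMP, 2'3'-cGAMP, 3'3'-cGAMP or c-di-GMP, or were untreated, with 2 libraries in each group. In the STING experiment, embryos microinjected with STING shRNA 1, STING shRNA 2 or GFP shRNA were kept for 4 h with 100 µM 2'3'-cGAMP or were untreated, again with 2 libraries in each group. In the NF-kB and STAT experiment, every embryo received 2'3'-cGAMP at that dose and time: STAT shRNA 1, STAT shRNA 2, NFkB shRNA 1 and NFkB shRNA 2 had 2 libraries each and the GFP shRNA control had 3, with no untreated embryos. All embryos were injected, so the GFP shRNA is the control, and the labels name neither the number of animals in a library nor separate cultures. The p-values below therefore measure only the spread between these samples, which may be technical.

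Cyclic dinucleotides are second messengers. Bacteria make c-di-AMP, c-di-GMP and 3'3'-cGAMP, whereas animal cells make 2'3'-cGAMP with the enzyme cGAS after sensing DNA; 2'3'-cGAMP differs from 3'3'-cGAMP in carrying a 2'-5' linkage in place of one 3'-5' linkage. In mammals the receptor STING binds these molecules and switches on transcription of immune genes through interferon regulatory factors and NF-kB, and interferons then act through STAT factors. NF-kB is a family of transcription factors with an old role in immunity, and sea anemones carry STING, NF-kB and STAT genes although they lack mammalian interferons.

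Of the 185 genes, 144 (77.84%) were matched to the RefSeq table of assembly jaNemVect1.1, against 76.43% of the polyp table. Among these, 142 were protein-coding, LOC116614705 was a long noncoding RNA and LOC5520257 was a pseudogene. Every matched gene carried only a placeholder symbol, so no function is assigned to any of them here, and the genes the shRNAs target were not paired with identifiers. Genes without a match are given by their NCBI Gene number. In the order of protein-coding genes along that assembly, 11 of the 142 placed genes (7.7%) lay next to another gene of the group, in 5 runs. No share was counted for other gene sets of this size, so nothing is read from this number. The longest run held LOC5503224, LOC5503217 and LOC116610889, and the pairs were LOC5520373 with LOC5520445, LOC5517492 with LOC5517508, LOC5513363 with LOC5513401, and LOC5499655 with LOC116605567. Neighbours could differ in size of response: LOC5517508 had a c-di-AMP minus untreated difference of 3.05, and LOC5517492 one of 1.15.

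The totals of normalised counts were 9556248 to 22363394 in polyps and 17509168 to 29281573 in embryos. In polyps most low values were multiples of what 1 read is worth, which put the estimated reads at 9370000 to 17420000 per library, and the 2'3'-cGAMP libraries, with the highest totals, were not the deepest. The GFP shRNA untreated replicate 1 library had 21.6% of its genes and 14 of the 185 listed at 0, against 3.99 to 14.4% of genes in the other embryo libraries. In the other untreated embryo libraries 1 to 5 of the 185 were at 0. That library entered the embryo condition of the selection, and results that rest on it are given with and without it.

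The values that chose the genes are described first, without a test. In c-di-AMP polyps the difference from untreated polyps ran between 0.80 and 3.71 with a median of 1.20. In 2'3'-cGAMP polyps it ran between 2.16 and 9.29 with a median of 5.30. The median difference of 2'3'-cGAMP from untreated was 3.31 in embryos, and the median difference of NF-kB from GFP shRNA embryos was -0.15. The 185 genes made up 9.35 and 9.24% of all normalised counts in the 2'3'-cGAMP polyps, 1.11 and 0.839% in the c-di-AMP polyps, 0.609 and 0.465% in the 3'3'-cGAMP polyps, 0.409 and 0.362% in the c-di-GMP polyps, and 0.342 and 0.369% in untreated polyps. In a whole animal, more cells that make an RNA and more RNA per cell cannot be told apart.

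**Figure D1:**
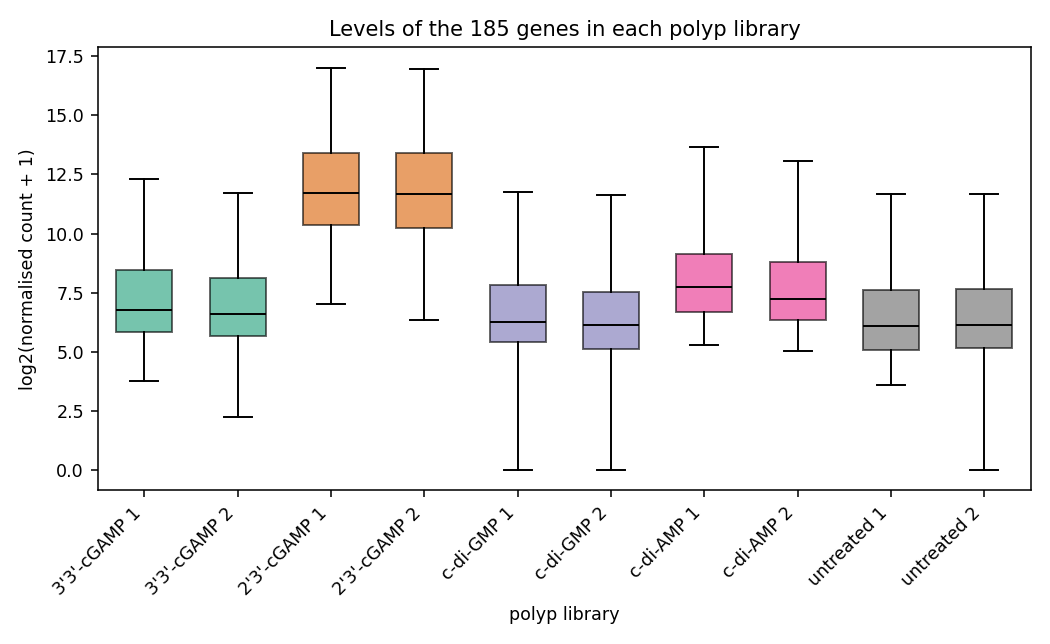
Levels of the 185 genes in each of the 10 polyp libraries, as log2(normalised count + 1). Boxes span the quartiles with the median as a line, and whiskers reach the lowest and highest gene. Medians are 11.72 and 11.68 with 2'3'-cGAMP, 7.73 and 7.22 with c-di-AMP, 6.77 and 6.58 with 3'3'-cGAMP, 6.26 and 6.15 with c-di-GMP, and 6.09 and 6.15 untreated.

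The 2'3'-cGAMP values exceeded the c-di-AMP values in both libraries for 184 of the 185 genes, against 37.5% of all 18511 tested genes, and by a median of 4.02 on the log2 scale (range 1.13 to 7.40 over all 185). At the same dose and time, and as scaled here, the means of every one of the genes were higher with 2'3'-cGAMP than with c-di-AMP. The selection asked more of 2'3'-cGAMP, so nothing is concluded from this order. The 2'3'-cGAMP libraries also had the highest totals of normalised counts. In them 1 read was worth 2.38 and 1.90 normalised counts, against 0.907 and 0.783 in the c-di-AMP libraries. Whether every gene stays higher with equal library totals was not tested. The c-di-AMP libraries were not alike for these genes: 154 of the 185 were higher in c-di-AMP replicate 1 than in replicate 2. How many of all tested genes were higher in replicate 1 was not counted, so this is not read as particular to the 185. The means stood in the order 2'3'-cGAMP, c-di-AMP, 3'3'-cGAMP, untreated for 178 of the 185. The selection set much of this order, because it asked for 2'3'-cGAMP and c-di-AMP values above these same untreated libraries. The share of all tested genes in this order was not counted, so no ranking of the molecules is read from it.

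The gene with the largest c-di-AMP difference, LOC5500366, had 735 and 704 normalised counts in c-di-AMP polyps, against 18.7 and 153 in untreated polyps, a difference of 3.71. Its untreated libraries were themselves far apart, and it was also high in c-di-GMP polyps, at 754 and 573. In embryos it stood at 2707 to 7264 in the 2'3'-cGAMP libraries and, in the untreated ones, at 4194 to 5404 in 5 libraries and 5.70 in GFP shRNA replicate 1, so it met the embryo condition through that single library.

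NCBI Gene 116612674 had 54.6 and 37.7 normalised counts in c-di-AMP polyps, against 28.1 and 0 in untreated polyps. Its difference of 3.10 rests on the library at 0. LOC5517508 came next, with 371 and 292 in c-di-AMP polyps, against 40.8 and 37.2 in untreated polyps, a difference of 3.05. With 2'3'-cGAMP it reached 20724 and 21756.

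LOC5516210 had 1683 and 1700.4 normalised counts in c-di-AMP polyps, against 349 and 253 in untreated polyps. LOC5516250 had 5578 and 4768 in c-di-AMP polyps, against 877 and 975 in untreated polyps, with 111377 and 123102 in 2'3'-cGAMP polyps. In both genes the c-di-AMP libraries lay far above the untreated ones and far below the 2'3'-cGAMP ones. The other 5 of the 10 largest c-di-AMP differences, of LOC116604674, LOC5513401, the long noncoding RNA LOC116614705, LOC116605567 and LOC5510756, lay between 2.17 and 2.35. LOC116614705 had 79.8 and 83.0 normalised counts in c-di-AMP polyps, against 17.0 and 15.9 in untreated polyps, and 6954 and 7547 with 2'3'-cGAMP.

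At the thresholds, LOC5510143 lay just inside the c-di-AMP condition at 0.80 and LOC5518919 just outside it at 0.7996. For 2'3'-cGAMP polyps NCBI Gene 116612244 was inside at 2.16 and NCBI Gene 5516231 outside at 1.99. In embryos LOC5514082 was inside at 1.04 and LOC5514953 outside at 0.948. In the NF-kB band LOC5518949 was inside at -0.798 and LOC5518669 outside at -0.808, and at its upper end LOC116603957 was inside at 0.725 and LOC5521493 outside at 0.824.

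The highest levels differed by stage. In 2'3'-cGAMP polyps LOC116616218 was highest, at 132456 and 125371 normalised counts, against 303 and 363 in untreated polyps. In embryos LOC5519349 was highest, at 160967 to 199998 over 6 libraries with 2'3'-cGAMP, against 2395 to 4946 over 6 untreated libraries. LOC5516250 was second in both stages, with 105872 to 196608 in the treated embryos of the STING experiment, against 2922 to 6113 in the untreated ones. These genes were picked by their values, and normalised counts are not divided by transcript length.

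Over the STING experiment, 168 of the 185 genes were higher in all 6 2'3'-cGAMP libraries than in all 6 untreated ones, against 7.96% of all 20879 tested genes, which the selection favours. A few were barely present in embryos: NCBI Gene 116611667 did not exceed 34.8 normalised counts in any library of that experiment, and NCBI Gene 116612244 stood at 0 to 173. Leaving out the GFP shRNA libraries with the most genes at 0 (untreated replicate 1 and 2'3'-cGAMP replicate 4) left 181 of the 185 in the selection.

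The comparison of 3'3'-cGAMP with c-di-GMP used no library of the selection, at matched dose and time. It asked whether the genes also separate these bacterial molecules, which differ in their bases and not in their linkages. In a fit with limma over all 18511 tested genes of the polyp table, 13 genes were higher with 3'3'-cGAMP than with c-di-GMP at an adjusted p below 0.05 (0.0702% of those tested), and 12 of these were among the 185. These 12 are 92.3% of the genes called higher and 6.49% of the 185. The only gene called lower (0.0054% of those tested; 14 in either direction, 0.0756%) was not among the 185. At an unadjusted p below 0.05 there were 1083 genes (5.85%), 93 of them among the 185 (89 higher). The genes' median difference was 0.51, against 0.01 over all tested genes, and 164 of the 185 were above 0, against 51.6% of all tested genes. Values with 3'3'-cGAMP lay above both c-di-GMP values in both libraries for 121 of the 185 (65.4%), against 19.1% of all tested genes, and below them for 9 (4.86%), against 18.6%.

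LOC5516250 had 3263 and 2918 normalised counts in 3'3'-cGAMP polyps, against 892 and 972 in c-di-GMP polyps. Both 3'3'-cGAMP libraries lay above both c-di-GMP libraries, and the gap was wider than that within either pair. The log2 difference was 1.73 (95% interval 1.46 to 1.99, n = 2 each; limma adjusted p = 0.0008). It was the only one of the 12 that remained called when any 1 of the 4 compared libraries was left out, with limma adjusted p between 0.00454 and 0.0286.

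LOC5516210 had 933 and 966 normalised counts in 3'3'-cGAMP polyps, against 355 and 252 in c-di-GMP polyps (log2 difference 1.66, limma adjusted p = 0.0143). LOC5517508 had 136 and 142 in 3'3'-cGAMP polyps, against 51.9 and 33.2 in c-di-GMP polyps (1.72, limma adjusted p = 0.0225). LOC116602986 had 203 and 309 in 3'3'-cGAMP polyps, against 77.5 and 85.5 in c-di-GMP polyps (1.61, limma adjusted p = 0.0173). In these 3 genes the c-di-GMP libraries lay close to the untreated ones, and no library of one group reached the other.

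LOC5522178 and LOC5518711 behaved otherwise. LOC5522178 had 102 and 59.5 normalised counts in 3'3'-cGAMP polyps, against 18.2 and 18.3 in c-di-GMP polyps, but untreated polyps had 47.6 and 64.6, so its log2 difference of 2.03 (limma adjusted p = 0.0267) came with c-di-GMP values below the untreated ones. LOC5518711 had 151 and 278 in 3'3'-cGAMP polyps, against 44.7 and 61.1 in c-di-GMP polyps, with 124 and 92.0 in untreated polyps (log2 difference 1.95, limma adjusted p = 0.0341). LOC116618106 had 68.3 and 103 in 3'3'-cGAMP polyps, against 22.8 and 26.2 in c-di-GMP polyps (1.74, limma adjusted p = 0.0304).

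The remaining 5 called genes were named because they passed the test. They were LOC5500942 (log2 difference 1.49), LOC5519349 (1.20), LOC5515274 (1.15), LOC5506676 (1.15) and LOC116616218 (0.88), with limma adjusted p between 0.0143 and 0.0341. LOC5506676 had 437 and 339 normalised counts in 3'3'-cGAMP polyps, against 187 and 161 in c-di-GMP polyps. LOC116616218 had 531 and 561 in 3'3'-cGAMP polyps, against 289 and 303 in c-di-GMP polyps.

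**Figure D2:**
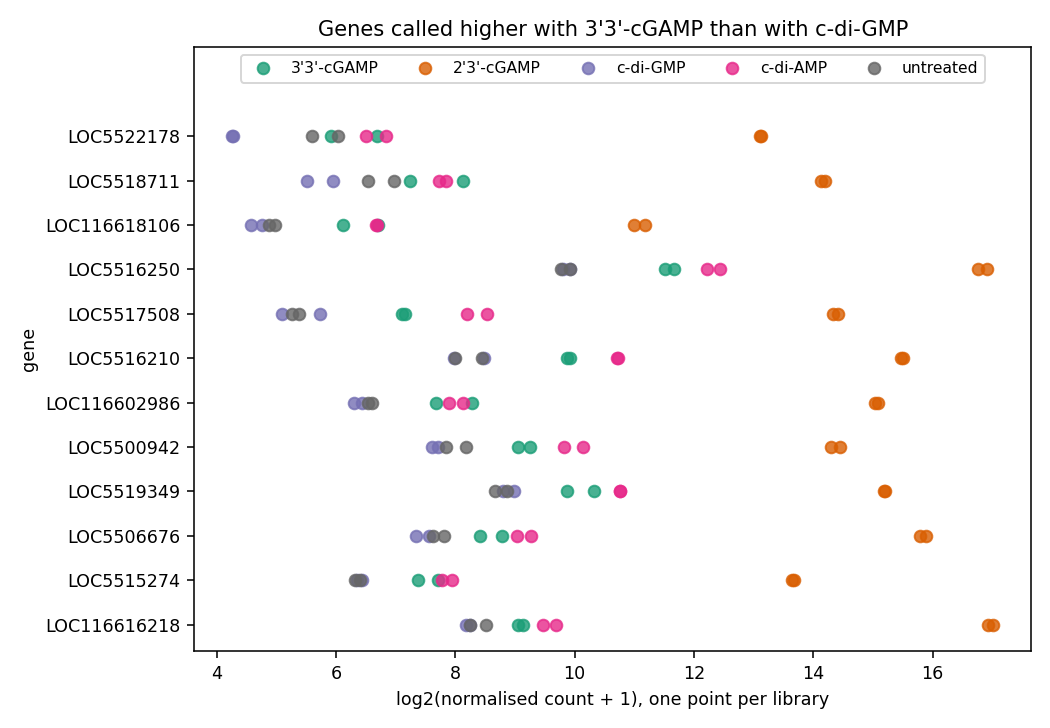
Normalised counts on the log2 scale, 1 point per polyp library, of the 12 genes called higher with 3'3'-cGAMP than with c-di-GMP, ordered by that difference from LOC5522178 at the top to LOC116616218 at the bottom. In each gene the 2'3'-cGAMP points stand far to the right of all others, and the 3'3'-cGAMP points lie right of the c-di-GMP points.

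Larger differences that did not pass the test came from values near 0. NCBI Gene 116604792 had 36.4 and 39.1 normalised counts in 3'3'-cGAMP polyps, against 13.7 and 0 in c-di-GMP polyps (log2 difference 3.34, limma adjusted p = 0.601). NCBI Gene 116612674 had 26.4 and 9.3 in 3'3'-cGAMP polyps, against 0 and 13.96 in c-di-GMP polyps, and these libraries overlapped (2.12, limma adjusted p = 0.863). NCBI Gene 5502749 was lower, with 47.0 and 3.72 in 3'3'-cGAMP polyps, against 71.1 and 50.6 in c-di-GMP polyps (-2.02, limma adjusted p = 0.819).

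The count of called genes among the 185 rested on few libraries, and it was 0 with the compared groups fitted alone. Only that fit took its spread from no library of the selection. The count fell without c-di-GMP replicate 1, without c-di-GMP replicate 2 and without 3'3'-cGAMP replicate 2. Without 3'3'-cGAMP replicate 1 it rose, as did the calls over the whole table. With 1 library left out a group holds 1 library, so no count is given here. The median difference over the 185 stayed between 0.381 and 0.666 in the fits with 1 library left out. For 783 genes that met the 2'3'-cGAMP, embryo and NF-kB conditions but not all c-di-AMP conditions, the median 3'3'-cGAMP minus c-di-GMP difference was 0.10, with 60.5% above 0. For the 30 genes that met all conditions but lay below the NF-kB band, it was 0.60. No test was made of the difference between these gene sets.

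**Figure D3:**
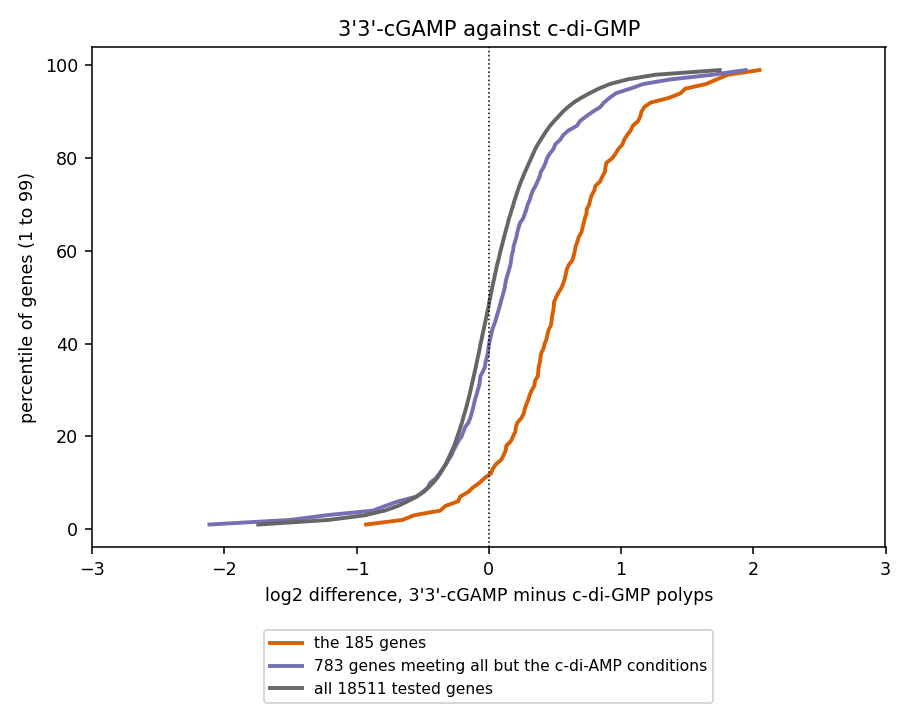
Percentiles of the 3'3'-cGAMP minus c-di-GMP log2 difference in polyps, for the 185 genes, for 783 genes that met all but the c-di-AMP conditions and for all 18511 tested genes. The curve of the 185 genes crosses its median at 0.51, that of the 783 at 0.10 and that of all genes at 0.01.

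The values against untreated polyps are a description. The selection asked for c-di-AMP and 2'3'-cGAMP values above these same untreated libraries, which favours genes with low untreated values, so no p-value is given for single genes and nothing is read from the counts. With 3'3'-cGAMP, 10 genes passed the limma threshold as higher than in untreated polyps (0.054% of 18511), all among the 185, and none as lower (0%). At an unadjusted p below 0.05 there were 800 genes (4.32%), 98 of them among the 185. The median difference of the 185 was 0.51, against 0.00 over all tested genes, and 177 of the 185 were above 0. Both 3'3'-cGAMP values lay above both untreated values for 134 of the 185 (72.4%), against 17.5% of all tested genes. Fitted with the compared groups alone, 0 of the 185 passed the threshold. With any 1 of the compared libraries left out fewer of the 185 passed, and genes outside the 185 passed in some of these fits. Such fits leave 1 library in a group. LOC5516250 had 3263 and 2918 normalised counts in 3'3'-cGAMP polyps, against 877 and 975 in untreated polyps, a log2 difference of 1.74. LOC5517508 differed by 1.81 and LOC5516210 by 1.67. For 152 of the 185 genes both 3'3'-cGAMP values lay below both c-di-AMP values, against 19.1% of all tested genes, where c-di-AMP chose the genes.

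The c-di-GMP polyps were set against the same untreated libraries. No gene in the table passed a limma adjusted p of 0.05 (0%), while 1877 of 18511 (10.1%) had an unadjusted p below 0.05, 35 of them among the 185 (22 higher). The median difference of the 185 was 0.00, with 92 above 0, the same as over all tested genes. Both c-di-GMP values lay above both untreated values for 39 of the 185 (21.1%), against 23.1% of all tested genes, and below them for 46 (24.9%), against 23.2%. The median half-width of a gene's 95% interval was 0.53, so differences smaller than that could not be told from 0 for most genes. The furthest up was LOC5500366, with 754 and 573 normalised counts in c-di-GMP polyps, against 18.7 and 153 in untreated polyps (log2 difference 3.58). The furthest down was NCBI Gene 116604792, with 13.7 and 0 in c-di-GMP polyps, against 15.3 and 21.2 in untreated polyps (log2 difference -2.31).

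In embryos, the comparison of STING with GFP shRNAs asked whether the response of these genes to 2'3'-cGAMP differed with STING shRNAs. The shRNA targets were not paired with identifiers, so how far STING RNA was lowered is not known here. Whether the response needs STING was therefore not tested. Both shRNA groups responded: the median 2'3'-cGAMP minus untreated difference was 3.42 with STING shRNA 1, 3.05 with STING shRNA 2 and 3.68 with GFP shRNA, values that the selection used. The difference between the responses was tested in the same fit for 184 of the 185 genes, NCBI Gene 116611667 being too low. No gene was called in either direction (0% of 20879), and 311 genes, 9 of them among the 185 and all 9 with a smaller response under STING shRNAs, had an unadjusted p below 0.05 (1.49%). The median difference of responses was -0.39, against -0.03 over all tested genes, with 154 of 184 below 0, against 52.4% of all tested genes. The median half-width of a gene's 95% interval was 1.10, wider than most of these differences. It was -0.27 without GFP shRNA untreated replicate 1 and -0.369 without GFP shRNA untreated replicate 2, where 18 of the 184 genes and 3.09% of all tested genes were called with a smaller response.

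Within each treatment the libraries compared are those of the embryo condition, which pooled them over shRNAs. In 2'3'-cGAMP embryos the median STING minus GFP shRNA difference was 0.04 over 184 genes, with no gene called (0%; 1616 genes, or 7.74%, at an unadjusted p below 0.05, 11 of them among the 184). All 4 STING shRNA values lay below both GFP shRNA values for 36 of 184 (19.6%), against 10.6% of all tested genes, and above them for 9 (4.89%), against 12.6%. In untreated embryos the median difference was 0.39, against 0.08 over all tested genes. The library medians of the 185 were 8.38 and 7.76 with STING shRNA 1 and 8.14 and 8.14 with STING shRNA 2, against 7.87 and 7.81 with GFP shRNA, so the groups overlapped. None of the 184 was called, 1 gene in the table was (0.00479%), and 1374 (6.58%) had an unadjusted p below 0.05, 50 of them among the 184 (47 higher). Values with STING shRNAs lay above both GFP shRNA values for 27 of 184 (14.7%), against 5.47% of all tested genes, and below them for 4 (2.17%), against 3.88%. Without GFP shRNA untreated replicate 1 the median was 0.279 with 0 called, and without GFP shRNA untreated replicate 2, which leaves the library with most genes at 0, 28 of the 184 were called. Of these 26 were higher, where 6.96% of all tested genes were called higher, and 2 lower, where 0.206% were.

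LOC5506676 was lower with STING shRNAs in both treatments. In 2'3'-cGAMP embryos it had 3102 and 5514 normalised counts with STING shRNA 1 and 2482 and 4181 with STING shRNA 2, against 12361 and 11216 with GFP shRNA. In untreated embryos it had 380.2 and 284 with STING shRNA 1 and 117 and 220.3 with STING shRNA 2, against 869 and 709 with GFP shRNA. In both treatments every STING shRNA library lay below every GFP shRNA library. The log2 difference was -1.69 in 2'3'-cGAMP embryos (95% interval -2.43 to -0.95, limma adjusted p = 0.561) and -1.77 in untreated embryos (-2.51 to -1.03, limma adjusted p = 0.665), with the smallest unadjusted p among the 184 genes in both, 0.000426 and 0.000299. Its response to 2'3'-cGAMP was nearly the same with STING as with GFP shRNAs, the difference being 0.08 (-0.97 to 1.13). Besides it, LOC5525249 was lower in every STING shRNA library in both treatments, with differences of -0.15 and -0.18 whose 95% intervals span 0. LOC5510450 was the one gene of the 184 higher in every STING shRNA library in both treatments, with differences of 0.82 (limma adjusted p = 0.561) and 0.86 (limma adjusted p = 0.665). Over all 20879 tested genes 0.58% were lower and 1.23% higher in this way. In the NF-kB and STAT experiment LOC5506676 had 7499 to 11442 normalised counts with STAT shRNAs, against 10090 to 11162 with GFP shRNA.

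**Figure D4:**
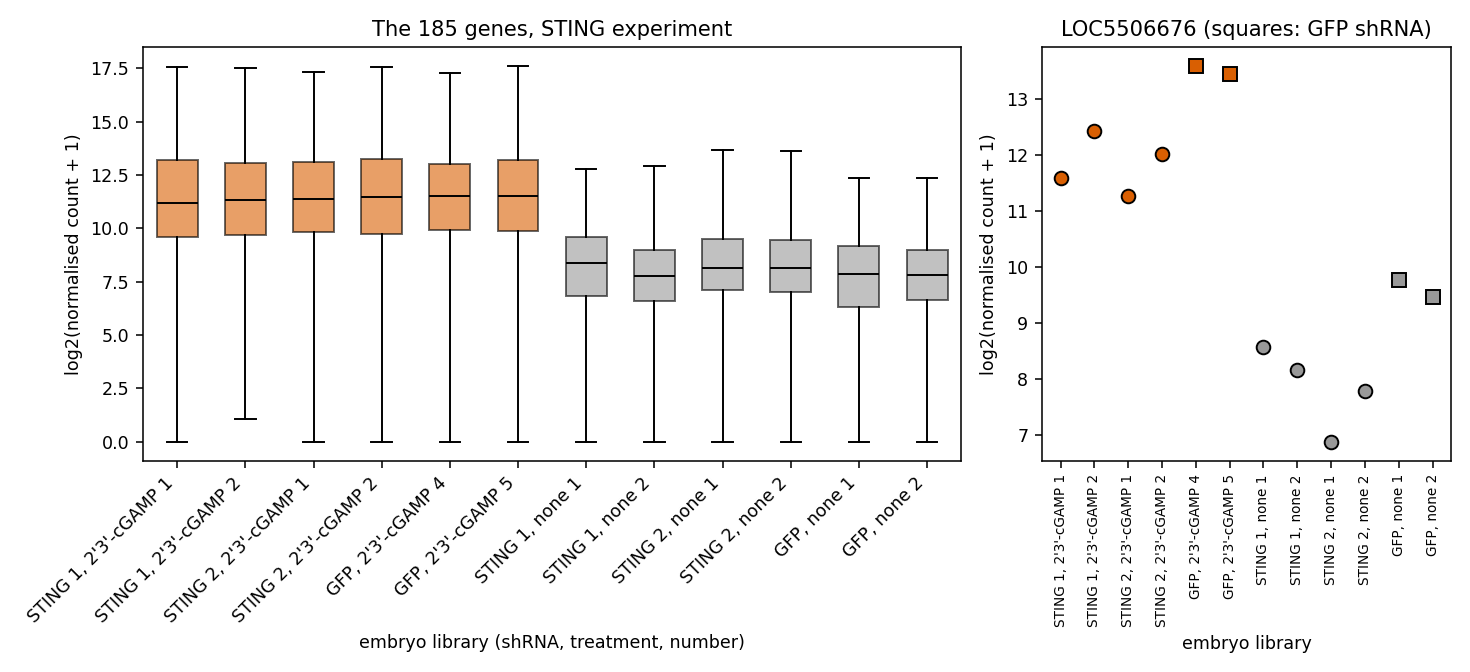
Left, levels of the 185 genes in the 12 embryo libraries of the STING experiment, as log2(normalised count + 1), with quartile boxes, medians and whiskers to the lowest and highest gene; orange is 2'3'-cGAMP and grey is untreated (none). Right, LOC5506676 in the same libraries, circles for STING shRNAs and squares for GFP shRNA: the circles lie below the squares of the same colour.

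Among the other named genes of this experiment, NCBI Gene 5500431 was furthest up with STING shRNAs in 2'3'-cGAMP embryos. It had 307 and 111 normalised counts with STING shRNA 1 and 306 and 279 with STING shRNA 2, against 43.3 and 209 with GFP shRNA, which overlap (log2 difference 1.28, limma adjusted p = 0.677). LOC5500366 was furthest up in untreated embryos at 4.77 (limma adjusted p = 0.665), which is the single GFP shRNA library at 5.70 described above. Its difference of responses was -5.12, and -0.371 without that library.

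The STAT shRNAs were compared with GFP shRNA in embryos that all received 2'3'-cGAMP. The GFP shRNA libraries are those of the NF-kB condition. Across 20058 tested genes, a single gene was called (0.00499%), lower with STAT shRNAs, and it was among the 185. Whether this gene, LOC5514869, is the one the STAT shRNAs target was not tested, since the sources used here do not pair targets with identifiers. LOC5514869 had 8294 and 7350 normalised counts with STAT shRNA 1 and 5839 and 4839 with STAT shRNA 2, against 20350.3, 24382 and 27499 with GFP shRNA. Every STAT shRNA library lay below every GFP shRNA library, with no overlap. The log2 difference was -1.89 (95% interval -2.27 to -1.51, n = 4 and 3, limma adjusted p = 0.000774), and the gene was called in each of 7 fits with 1 library left out, with limma adjusted p between 0.00118 and 0.013.

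In the NF-kB shRNA libraries LOC5514869 had 19630 and 12476 normalised counts with NFkB shRNA 1 and 23213 and 25342 with NFkB shRNA 2, so that both NFkB shRNA 1 libraries lay below the GFP shRNA range and neither NFkB shRNA 2 library did. In polyps it had 33896 and 32658 with 2'3'-cGAMP, 1662 and 1188 with c-di-AMP, 891 and 633 with 3'3'-cGAMP, 629 and 498 with c-di-GMP, and 583 and 748 untreated. In the STING experiment its 2'3'-cGAMP values with STING shRNAs, 14634 to 16542, lay below those with GFP shRNA, 25288 and 17246, with a log2 difference of -0.43 (95% interval -1.24 to 0.37).

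As a group the 185 genes were slightly lower with STAT shRNAs. Their median difference was -0.24, against 0.00 over all tested genes, and 137 of 185 were below 0, against 49.7% of all tested genes. All 4 STAT shRNA values lay below all 3 GFP shRNA values for 29 of the 185 (15.7%), against 3.21% of all tested genes, and above them for none (2.88% of all tested genes). At an unadjusted p below 0.05 there were 1080 genes (5.38%), 48 of them among the 185, of which 47 were lower. The median with STAT shRNA 1 was -0.29 and with STAT shRNA 2 was -0.09. LOC116610889 and LOC5517492, picked here because they belong to the runs of neighbouring genes and were among the lower ones, had differences of -0.86 and -0.80 that did not pass the test. For the 783 genes outside the c-di-AMP conditions the median was -0.09, and for the 30 genes below the NF-kB band it was -0.33.

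**Figure D5:**
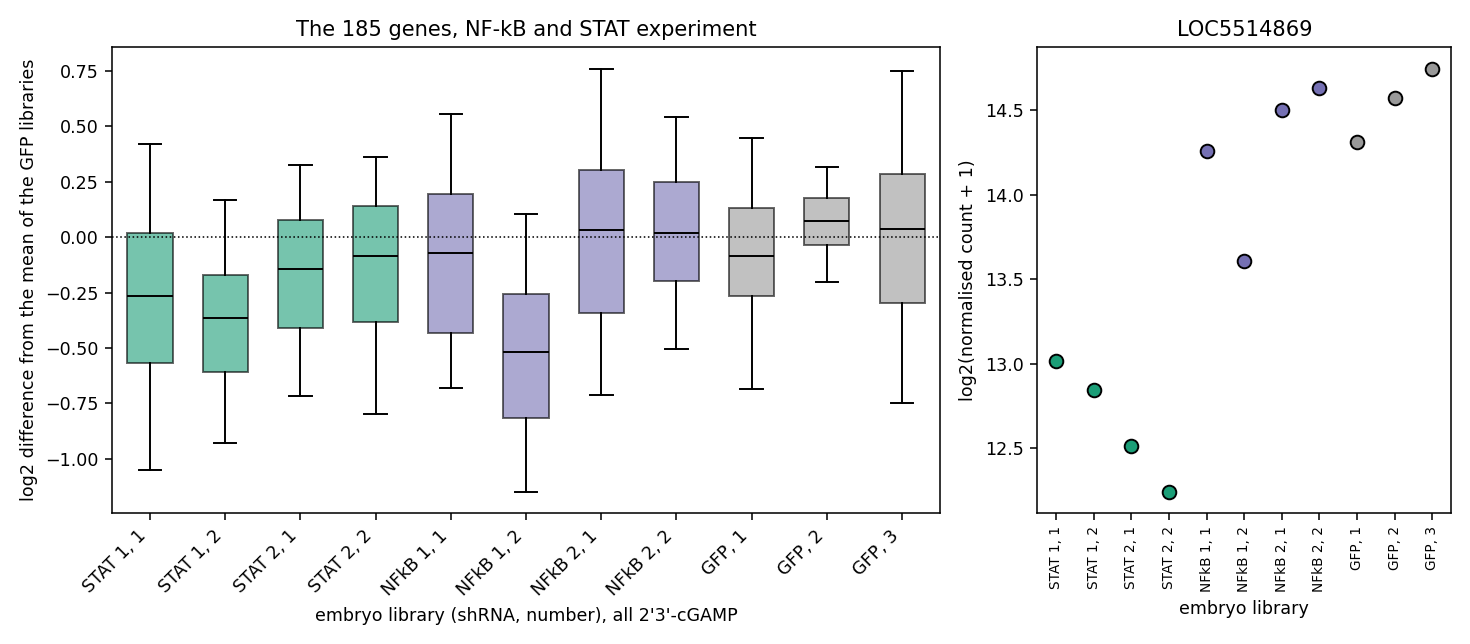
Left, log2 difference of the 185 genes from their mean over the 3 GFP shRNA libraries, by library of the NF-kB and STAT experiment, with quartile boxes and whiskers to the 5th and 95th percentiles; all libraries are 2'3'-cGAMP embryos. Right, LOC5514869 in the same libraries: the 4 STAT shRNA points lie below all others.

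The hairpins against one factor were also compared with each other. With NFkB shRNA 1 minus NFkB shRNA 2 the median over the 185 genes was -0.32, against 0.00 over all tested genes, and 165 of 185 were below 0, against 49.8% of all tested genes. No gene was called (0% of 20058), 2329 (11.6%) had an unadjusted p below 0.05, and 27 of these were among the 185, all lower. NFkB shRNA 1 lay below NFkB shRNA 2 in all libraries for 80 of the 185 (43.2%), against 19.7% of all tested genes. The library medians of the 185 were 11.24 and 10.80 with NFkB shRNA 1, 11.29 and 11.33 with NFkB shRNA 2, and 11.30, 11.52 and 11.51 with GFP shRNA. The hairpin difference was -0.095 without NFkB shRNA 1 replicate 2 and -0.525 without NFkB shRNA 1 replicate 1, so its size rests on the first of these libraries. The NF-kB condition used the mean of both hairpins: against GFP shRNA the median was -0.31 with NFkB shRNA 1 and 0.00 with NFkB shRNA 2. With 1 hairpin, single genes could lie outside the band of the selection. They ran between -1.375 and 0.702 with NFkB shRNA 1 and between -1.415 and 2.807 with NFkB shRNA 2.

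With STAT shRNA 1 minus STAT shRNA 2 the median was -0.19, against -0.01 over all tested genes, with no gene called (0%; 982, or 4.9%, at an unadjusted p below 0.05, 21 of them among the 185). STAT shRNA 1 lay below STAT shRNA 2 in all libraries for 83 of the 185 (44.9%), against 18.8% of all tested genes. With libraries set to equal totals that median was -0.023, while the median of all genes moved to 0.15. Neither of the following differences between hairpins passed the test. NCBI Gene 116611667 had 0 and 0 normalised counts with NFkB shRNA 1, against 24.7 and 11.8 with NFkB shRNA 2. NCBI Gene 116607521 had 421.5 and 622 with STAT shRNA 1, against 1108 and 1138 with STAT shRNA 2 (log2 difference -1.13, limma adjusted p = 0.946).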

How the data were processed

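Gene-level signal, called normalised counts in the labels, was deposited by the authors in 3 tables, 1 for polyps and 1 for each embryo experiment. Per the submitters' processing notes, FastQC 0.11.9, kallisto 0.46.1 and DESeq2 were used, with no role or order, and the build is not given in the sources used here. Of polyp values below 200 reads, 86.4 to 88.5% per library were whole multiples of 1 read (tolerance 0.02 read), and at most 26.5% in embryo tables. Reads could therefore not be recovered, no count model was run, and embryo depth is unknown. Estimated polyp reads are the total divided by the value of 1 read.

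The members and lists were chosen with earlier results of these data known. Values were tested as log2(value + 1), whose pseudocount of 1 understates changes of low genes, with limma 3.58.1 in R 4.3.3 (two-sided, variance trend, Benjamini-Hochberg over each table). Genes needed 10 or more in at least 2 libraries, each table was fitted once with all its groups, and calls needed an adjusted p below 0.05. The scripts were tested on simulated data. Genes named were those with the 10 largest c-di-AMP differences, the 10 largest 3'3'-cGAMP minus c-di-GMP differences, the extremes of each other comparison (3 called genes a direction, otherwise 1) and those at the thresholds; others are said to be chosen by their values. The pathway and cell type lists matched no gene, because the reference gives no descriptions, so markers were not analysed here. Alternatives covered the pseudocount, filter, scaling, groups fitted, single hairpins, replicate block and left-out libraries.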

Additional observations from a re-analysis of the deposited data

How the results depend on the processing

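Counts of the 185 genes called moved in polyp and embryo comparisons. For 3'3'-cGAMP minus c-di-GMP the count of 12 became 0 with the compared groups alone and 1 to 15 with 1 library left out. The highest of these counts covers genes called in both directions and came from the fit without 3'3'-cGAMP replicate 1. In that fit more genes were called over the whole table too. Polyp fits with 1 library left out leave 1 library in a group, so nothing is read from their counts. For 3'3'-cGAMP minus untreated the count of 10 became 0 with the compared groups alone and fell with 1 library left out. The median of 0.513 ran between 0.410 and 0.719. For c-di-GMP minus untreated none was called in the fits that kept both libraries of each group. With STING shRNAs, 0 to 18 were called for the response, 0 to 28 in untreated embryos and 0 to 25 for the mean of both treatments; the untreated median was 0.199 with hairpin 1 alone and 0.646 with hairpin 2 alone. The counts of 18, 28 and 25 all came from the fit without GFP shRNA untreated replicate 2. That fit leaves 1 untreated GFP shRNA library, the one with most genes at 0. Many genes over the whole table were called in it too, so nothing about the 185 is read from these counts. The hairpin difference for NF-kB ran between -0.525 and -0.095, and that for STAT was -0.023 with equal library totals. NCBI Gene 116612244 had an NF-kB hairpin difference of 2.12, which ran between 0.0 and 4.234 with 1 library left out (0.0 without NFkB shRNA 1 replicate 1). The cause was not tested. In the replicate block, replicate numbers serve as a term; correlations of same-numbered libraries spanned -0.099 to 0.068 (polyps), 0.022 to 0.277 (embryos with STING shRNAs) and -0.012 to 0.088 (embryos with NF-kB or STAT shRNAs), so libraries share only a number, and the block gave 7 calls for 3'3'-cGAMP minus c-di-GMP. No paired analysis was possible for the STING response and the 2'3'-cGAMP embryos because the GFP shRNA libraries there carry other numbers. The selection held 188 genes with a pseudocount of 0.5, of which 184 were among the 185, and 174 with 5, all among them. With equal totals it held 168 genes, of which 159 were among the 185. With TMM factors it held 169, all among the 185. Pairs of libraries leave the spread of a single gene poorly known.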

Other observations

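LOC5506676 was lower with STING shRNAs in both treatments, and its difference was therefore also fitted as a mean over both treatments, a comparison chosen after its values were seen. The log2 difference, STING minus GFP shRNA, was -1.73 (95% interval -2.25 to -1.20, lower in 8 of 8 STING shRNA libraries than in any GFP shRNA library of the same treatment), with an unadjusted p of 1.92e-05 and a limma adjusted p of 0.305 over 20879 genes. No gene was called in that fit, while 3395 (16.3%) had an unadjusted p below 0.05. With 1 library left out the difference ran between -1.84 and -1.61. Each of these fits leaves 1 library in a group, so no call is read from them. Under the 7 other settings the adjusted p was 0.27 to 0.319. Whether this identifier is the gene the shRNAs target was not tested, since the sources used here do not pair them.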
